A study of Owenia fusiformis with 9 samples.

Results

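Gene expression in the retractor muscle of the adult annelid *Owenia fusiformis* was compared with that in its body wall, as 1 RNA-seq library against 1 other. The comparison covers 15634 of the 31911 transcripts of the deposited table. They are those with a normalized value of 50 or more in either library, after 43 transcripts above 0.1% of the summed testis values were left out. Those 43 took 75.3% of the retractor muscle values and 88.8% of the testis values, against 1.97% of the body wall values. Their log2 ratio of muscle to body wall had a median of 13.20, and 41 of them were at least 4-fold higher in the muscle. The lowest testis value left out was 134934 and the highest one kept was 112409.

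The tissues came from untreated adult worms kept in artificial sea water with mud and fed a mixture of algae. The retractor muscle is labelled as male and the body wall as female, so tissue, sex and individual worm cannot be told apart. The dissections drew on a pool of 5 females for head and tail, on 1 female for the gut, the ovary and a muscle sample, and on 1 male for the testis, the blood vessel, the chaetae and a muscle sample. The labels do not say whether body wall and retractor muscle are the muscle samples of that text. Each of the 9 tissues has 1 library, so no difference below has a replicate, no test between tissues was run, and intervals cover counting error only. In bulk tissue, fewer cells of a type and less RNA per cell cannot be told apart.

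The body wall of an annelid is a composite organ. Below a cuticle lie a secretory epidermis and then layers of circular and longitudinal muscle, with nerves and connective tissue between them. A retractor muscle is a bundle of contractile fibres that pulls a body part back, so both samples should contain muscle while the epidermis belongs to the body wall. In animal muscle in general, the most abundant products are those of the contractile apparatus, such as actin, myosin and tropomyosin. The files give transcripts by identifier only, and 0 of them matched any of 27038 annotated genes in RefSeq's list for the species (assembly Owenia_chromosome), so the contractile genes could not be looked up and neither label was checked against muscle markers. For the same reason the transcripts below carry no gene name, role, position or sequence.

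The values are close to read counts divided by a size factor, a number per library that puts libraries on a common scale. One read was worth about 2.75 in retractor muscle, 0.595 in body wall and 5.53 in testis, and the 3 libraries held close to 20533335, 17220174 and 22177997 reads. Because so many reads went to the 43 transcripts, 5077550 reads remained for all others in the retractor muscle and 2481005 in testis, against 16881339 in body wall. A value of 50 was therefore about 18.2 reads in the retractor muscle, 84 in body wall and 9.05 in testis.

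Over the 15634 transcripts, the log2 ratio of retractor muscle to body wall, with 10 added to both values, had a median of -0.15 and middle quartiles of -1.28 and 0.90. It ran from -10.37 to 14.44, and 46.9% of the transcripts were less than 2-fold apart. At least 2-fold higher values were seen for 3625 transcripts in the muscle (23.2%) and for 4676 in body wall (29.9%). At least 4-fold, the fold used from here on, the numbers were 1914 (12.2%) and 2660 (17.0%). At 8-fold they were 1030 (6.59%) and 1502 (9.61%), and at 16-fold 554 (3.54%) and 664 (4.25%). The body wall thus held more of the differing transcripts at each of these 4 folds. The order did not hold at the far ends, where the 20 largest ratios on the muscle side lay between 11.54 and 14.44 and the 20 lowest between -10.37 and -7.48. Of the transcripts 4-fold apart, 41.8% were higher in the muscle. This split depends on the scaling, as it was 29.6% when every library was rescaled to the same sum over the transcripts kept, which moved the median ratio to -0.66.

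**Figure D1:**
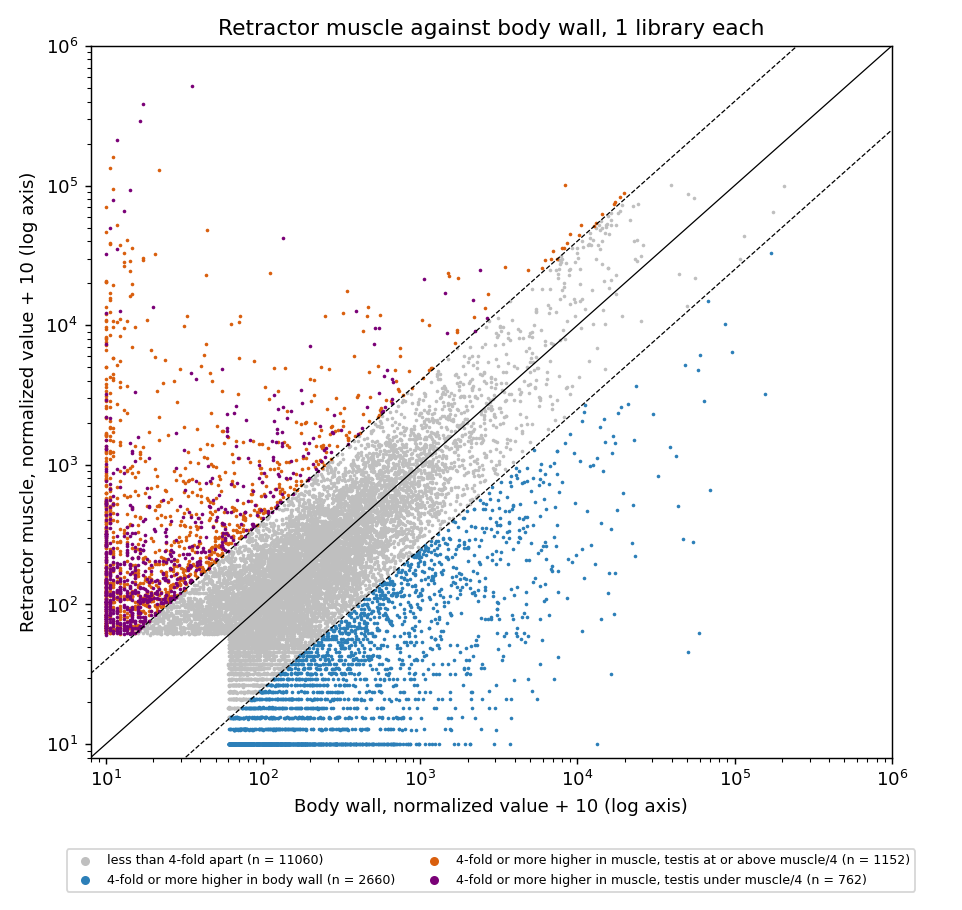
Normalized value + 10 of each of the 15634 transcripts in the body wall (horizontal, log axis) and the retractor muscle (vertical, log axis), 1 library each. The solid line marks equal values and the dashed lines a 4-fold difference. The 1914 transcripts higher in the muscle are split by their testis value into 1152 and 762, and the points that lie farthest from the solid line are those of the muscle above 10000 with body wall values close to 0.

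Counting error is small for most of these transcripts. For 1755 of the 1914 muscle transcripts and 2148 of the 2660 body wall transcripts, the whole 95% counting interval of the ratio lay past 4-fold. Of the muscle transcripts 369 had no read in the body wall, and of the body wall transcripts 843 had no read in the muscle. No read is easier to reach in the muscle, where 3 reads, the limit that a count of 0 allows, are worth 8.25, than in the body wall, where they are worth 1.79.

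The transcripts higher in the muscle made up 43.1% of the muscle values kept and 3.31% of the body wall values kept. Their median value was 234 in muscle and 7.14 in body wall. In the other libraries their medians were 127 in testis, 48.3 in head plus chaetae, 36.8 in head, 21.8 in blood vessel, 20.1 in tail, 18.5 in ovary and 15.2 in gut. The testis was also the library in which most of them reached 0.25 times their muscle value, 1152 (60.2%). The head plus chaetae, chaetae being bristles carried by segments, and the head followed with 733 (38.3%) and 724 (37.8%), then the blood vessel with 633 (33.1%), and the tail, gut and ovary with 26.5% to 27.6%. Over all transcripts described with a muscle read, 75.8% reached this level in the testis and 69.9% to 87.4% in the other 7 libraries, the body wall included. The testis, which is second lowest there, is the highest of the 7 other libraries among the muscle transcripts.

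**Figure D2:**
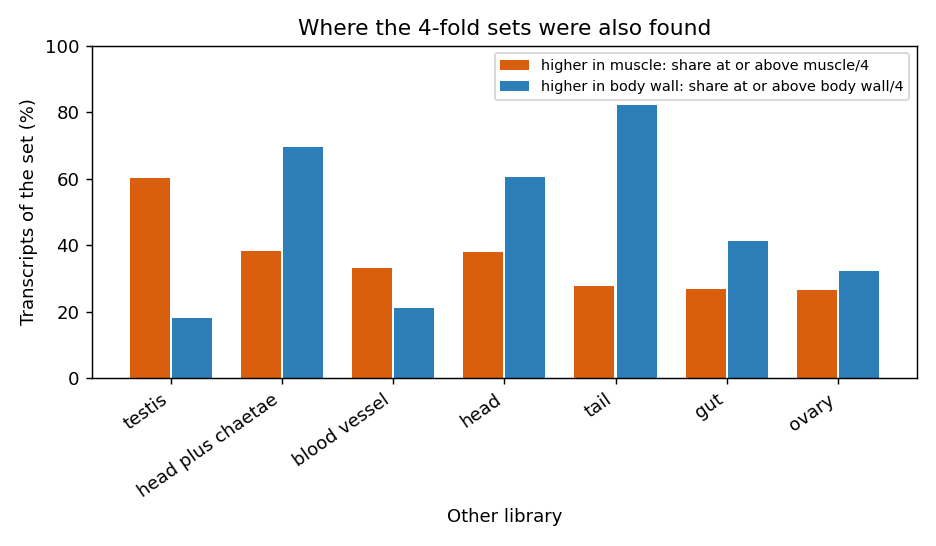
Share of the 1914 transcripts higher in the muscle that had at least 0.25 times their muscle value in each of 7 other libraries (orange), and share of the 2660 higher in the body wall that had at least 0.25 times their body wall value (blue), in percent. The testis holds the tallest orange bar (60.2%) and the shortest blue bar (18%), and the tail the tallest blue bar (82.1%).

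Split by the testis, 686 of the muscle transcripts (35.8%) had a testis value at or above their muscle value, 466 (24.3%) one between 0.25 and 1 times it, and 762 (39.8%) one below 0.25 times it. The 3 classes took 12.2%, 14.4% and 16.5% of the muscle values kept. The 16.5% of the class that is low in the testis rested on 8 transcripts described below, without which it was 4.5%, the smallest of the 3. Its rank by number depended on the floor, as with a floor of 100 in place of 50 it held 540 transcripts against 582 with the testis at or above the muscle, and with a floor of 200 it held 336 against 426. In the class low in the testis the median was 169 in muscle, 5.94 in body wall and 5.53, about 1 read, in the testis. No testis read was seen for 348 of them, of which 193 had 100 or more in the muscle. These 348 were 18.2% of the 1914 muscle transcripts, against 14.4% without a testis read among all transcripts described. The highest library other than the muscle was most often the head plus chaetae, in 205 of the 762, then the head in 156 and the gut in 147. In the class with the testis at or above the muscle, the testis was the highest of the other libraries in 457 of 686 and the blood vessel in 185. The split by testis value fixes part of the rankings in both classes, and they have no background over all transcripts described. All 8 other libraries lay below 0.25 times the muscle value for 167 of the 1914 transcripts (8.73%), and the testis alone reached it for 363 (19%). The body wall lies below it for all 1914 by the call. The shares over all transcripts described are not given here, so these counts have no background.

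Large values were concentrated in few transcripts. At 10000 or more in the muscle there were 102 transcripts higher in the muscle, and the 10 most abundant of them took 15.1% of the muscle values kept. They fell into several profiles when the other libraries were read at 0.05 times the muscle value, a boundary chosen after the values were seen. In 24 all of blood vessel, gut, head, head plus chaetae, ovary and tail reached it. Of the rest, the testis reached it and the head plus chaetae did not in 53, both did in 13, and the head plus chaetae did and the testis did not in 11. The remaining transcript reached it in neither testis nor head plus chaetae.

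The 53 transcripts of the profile shared with the testis had a median of 20373 in muscle, 30019 in testis and 2.97 in body wall. The testis value ranged from 0.0734 to 3.99 times the muscle value with a median of 1.4. The head plus chaetae had a median of 288 and the other 6 libraries medians of at most 24. They took 11.1% of the muscle values kept. Of the 43 transcripts left out, 41 were likewise at least 4-fold lower in the body wall than in the muscle, and the other 2 were not. The log2 ratios of the 43 ran from 1.13 to 16.26. The 43 had a muscle value at a median of 0.335 times the testis value. The testis value is therefore given for each transcript named here, and its part in the muscle values was not tested.

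The profile of muscle and head plus chaetae held the largest ratio of the transcripts described. Its log2 ratios ran from 2.08 to 14.44, and those of the profile shared with the testis from 3.66 to 13.80. OFUSG11394.1, the transcript with the largest log2 ratio (14.44), had a normalized value of 382050 in retractor muscle and 7.14 in body wall. Its other values were 53360 in head plus chaetae, 7689 in testis, 94.8 in blood vessel, 19.2 in ovary, 5.3 in gut, 5.01 in tail and 4.79 in head. The ratio of muscle to body wall was 53491 (95% counting interval 30619 to 103516), from 12 reads in the body wall. The transcript was thus found at a high level in the muscle, at a lower one in the head plus chaetae, and was close to absent from the head library. The paper's methods name a sample of the head with the anterior-most segments, so the head libraries may differ by more than chaetae.

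OFUSG05301.1 had the next largest ratio among transcripts with a testis value below 0.25 times the muscle value (log2 ratio 14.14). Its normalized value was 212905 in muscle, 26894 in head plus chaetae, 1039 in testis, 149 in blood vessel, 7.18 in head, 3.59 in tail, 2.05 in ovary, 1.78 in body wall and 1.32 in gut. The body wall value was 3 reads, so that the ratio of 119350 has a counting interval of 40795 to 578149. Muscle and head plus chaetae again stood far above all other libraries.

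The most abundant transcript of the muscle outside the 43, OFUSG21087.1, was chosen after its values were seen and again had the head plus chaetae as its second library. It had 516285 in muscle, 53650 in head plus chaetae, 153 in head, 139 in tail, 50.6 in ovary, 36 in blood vessel, 27.6 in testis, 25.6 in body wall and 10.6 in gut. Alone it took 3.7% of the muscle values kept.

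These 3 are among 8 transcripts that had at least 10000 in muscle, at least 0.05 times that in the head plus chaetae, less than 0.05 times in the testis and less than 0.001 times in each of the other 6 libraries. They ranged from 35086 to 516285 in muscle, from 6893 to 53650 in head plus chaetae, from 0 to 7689 in testis and from 1.19 to 25.6 in body wall, and the highest value in any of the other 6 libraries was 153. Their head plus chaetae value was 0.104 to 0.3 times their muscle value, with a median of 0.135. The 8 made up 12% of the muscle values kept, 2.06% of the head plus chaetae values kept and 0.0644% of the testis values kept. The testis held less than 100 of 6 of the 8. In the profile shared with the testis, the lowest testis value was 934. The sorting by testis value sets part of this contrast. The head plus chaetae is labelled as male, like the muscle. The blood vessel, the other male body sample besides the testis, held at most 149 of any of the 8. Low values there were a condition of the choice, so they say nothing on the shared sex. The part of tissue carried over between the muscle and the head plus chaetae samples was not tested.

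**Figure D3:**
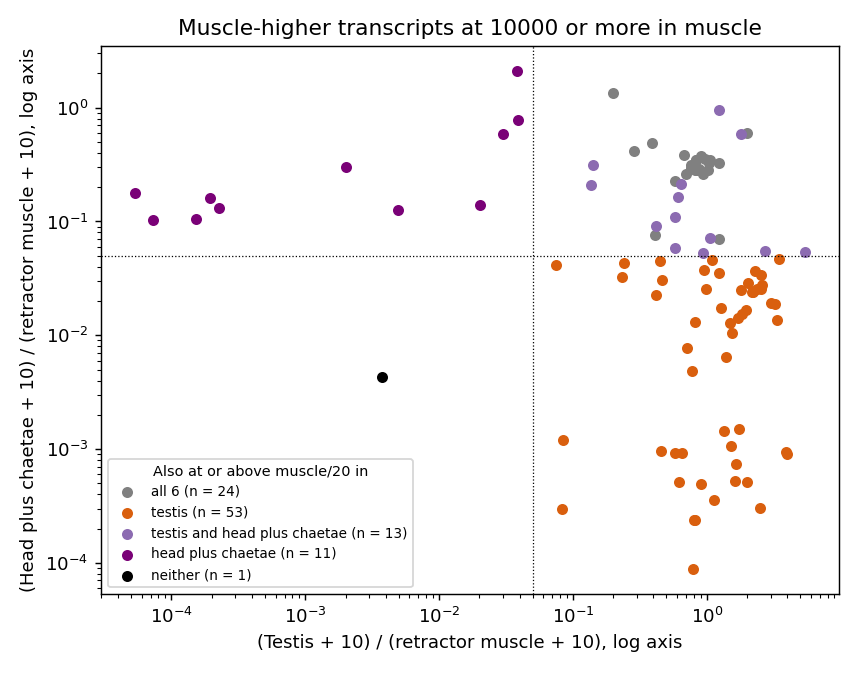
The 102 transcripts higher in the muscle with a muscle value of 10000 or more, by the ratio of testis to muscle (horizontal, log axis) and of head plus chaetae to muscle (vertical, log axis), each value with 10 added. Dotted lines mark 0.05 times the muscle value, and colours give the libraries above it. The 11 transcripts of muscle and head plus chaetae lie to the left, 8 of them with head plus chaetae values of 0.104 to 0.3 times the muscle value, and the 53 shared with the testis lie at the lower right.

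The 24 transcripts found in all libraries had far smaller ratios. Their medians were 37055 in muscle, 35302 in testis, 30766 in ovary, 19854 in head, 19332 in gut, 17404 in tail, 13010 in blood vessel, 12224 in head plus chaetae and 8234 in body wall. Their log2 ratios began at 2.01, at the boundary of the call, and had a median of 2.16. The body wall was the lowest of the 9 libraries for 19 of them, a direction that the choice by ratio fixes in part. The largest ratio (log2 3.59) was that of OFUSG13497.1, chosen after its values were seen, with 100254 in muscle, 41499 in testis, 16065 in ovary, 15600 in gut, 13400 in blood vessel, 8308 in body wall, 8080 in tail, 7643 in head plus chaetae and 6387 in head. Here the muscle stood above 8 libraries that were themselves all high. After rescaling to equal sums, chosen after the values were seen, 4 of the 24 remained 4-fold higher in the muscle, against 53 of 53 and 10 of 11 in the profiles shared with the testis and with the head plus chaetae.

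The shift toward the muscle among abundant transcripts depended on the level. It was read on the values as deposited and was not recomputed with the libraries rescaled to equal sums. That rescaling lowered the median over all transcripts described to -0.66. In 663 transcripts with at least 1000 in both libraries the median log2 ratio was 0.32, with 184 (27.8%) at least 2-fold higher in the muscle and 92 at least 2-fold higher in the body wall. In 154 transcripts with at least 5000 in both libraries, both limits chosen after the values were seen, the median was 1.29, against -0.15 over all transcripts described. Of these, 85 (55.2%) were at least 2-fold higher in the muscle and 14 at least 2-fold higher in the body wall. Of the 154, 128 were at 1000 or more in all 9 libraries, and the body wall was the lowest library for 66. Their medians were 27694 in muscle, 25122 in testis, 22274 in ovary, 16118 in gut, 14243 in tail, 13877 in head, 13522 in head plus chaetae, 12411 in blood vessel and 10947 in body wall. Muscle, testis and ovary were the 3 highest of these medians and the body wall the lowest.

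Among the transcripts higher in the body wall, the tail was the library that most often shared them. They made up 36.5% of the body wall values kept, 37% of the tail values kept and 1.94% of the muscle values kept. Their median was 227 in body wall, 168 in tail, 125 in head plus chaetae, 98.2 in head, 39.6 in ovary, 35.8 in gut, 11 in muscle, 7.6 in blood vessel and 5.53 in testis. At least 0.25 times the body wall value was reached by 2183 of the 2660 in tail (82.1%), 1848 in head plus chaetae (69.5%), 1606 in head (60.4%), 1096 in gut (41.2%), 858 in ovary (32.3%), 558 in blood vessel (21%) and 480 in testis (18%). Over all transcripts described with a body wall read, the corresponding shares were 93.1% in tail, 91.4% in head plus chaetae, 86.9% in head, 79.1% in gut, 76% in ovary, 67% in blood vessel and 69.8% in testis. All shares were lower than this background, and the tail and head plus chaetae kept most of it. Tail, head and head plus chaetae, the samples that include the outer surface of the worm, all reached the level for 1240 (46.6%, against 81% of all described). The body wall alone of the 9 libraries held 110 (4.14%) by the same measure. The muscle lies below the level for all 2660 by the call, and the share over all described is not given here. No testis read was found for 1087 (40.9%), against 14.4% of all described.

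**Figure D4:**
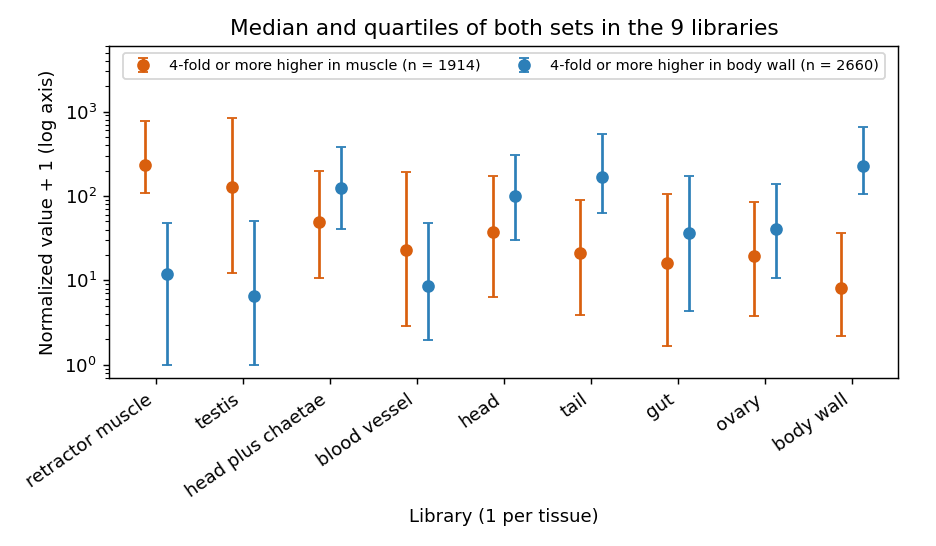
Median normalized value + 1 (points, log axis) with the lower and upper quartile (bars) of the 1914 transcripts higher in the muscle (orange) and the 2660 higher in the body wall (blue) in each of the 9 libraries. The bars show spread over transcripts, not over samples. After the muscle, the orange median is highest in the testis (127), and after the body wall the blue median is highest in the tail (168), followed by the head plus chaetae (125) and the head (98.2).

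OFUSG18352.1 had the lowest log2 ratio (-10.37, a value set in part by the 10 added). It had no read in the retractor muscle and a normalized value of 13250 in body wall, which was at least 1607-fold higher than the limit of 3 muscle reads. It had 5301 in tail, 1205 in head, 121 in gut, 29.4 in head plus chaetae, 11.1 in testis, 6.88 in ovary and 0 in blood vessel. Body wall, tail and head, all female, stood above the rest, while the female gut and ovary and the male head plus chaetae were low. The second isoform of its gene had 49 in muscle, 8.35 in body wall and no read in the testis.

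OFUSG06531.1, the most abundant of the transcripts higher in the body wall, differed less (log2 ratio -2.37). It had 248736 in tail, 170399 in body wall, 82994 in head plus chaetae, 70436 in head, 33769 in gut, 32865 in retractor muscle, 14267 in ovary, 2025 in blood vessel and 1277 in testis. The body wall value was 5.18 times the muscle value (95% counting interval 5.09 to 5.28). It was abundant in every body region and lowest in the testis and the blood vessel.

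Another pair with very low muscle values was chosen after the values were seen. OFUSG08069.1 (log2 ratio -9.91) had 59682 in body wall, 32157 in tail, 6972 in head, 4112 in head plus chaetae, 458 in gut, 206 in ovary, 52.1 in retractor muscle, 27.6 in testis and 2.85 in blood vessel. OFUSG20036.1 (log2 ratio -8.06) had 110380 in tail, 5563 in body wall, 82.9 in testis, 49 in head, 32.5 in gut, 30.6 in head plus chaetae, 10.9 in muscle, 9.64 in ovary and 5.71 in blood vessel. The first was spread over body wall, tail and both head samples, while the second was mainly a tail transcript that the body wall shared.

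The most abundant body wall transcripts were less widely shared than the set as a whole. The choice by body wall value fixes part of this, as sharing is measured against that same value. No background of equally abundant transcripts is given. Of the 50 most abundant, which began at 12078 and took 17.9% of the body wall values kept, 32 reached 0.25 times the body wall value in the tail, 18 in head plus chaetae, 10 in head, 8 in gut, 5 in ovary and 0 in testis or the blood vessel. The highest value that any of the 50 had in the testis was 1277. Of the 20 lowest ratios, 17 were shared with the tail by this measure and 5 with the head plus chaetae, 6 had no read in the muscle, and none had more than 271 there. Over the 2660 higher in the body wall these shares were 82.1% in tail, 69.5% in head plus chaetae and 31.7% without a muscle read. Over all transcripts described they were 93.1% and 91.4% (with a body wall read) and 5.39%. Among the 20 largest ratios on the muscle side, no body wall value was above 25.6, the testis was at or above the muscle in 5, and it was below 0.25 times the muscle in 9. Over the 1914 higher in the muscle these testis shares were 35.8% and 39.8%.

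Similar levels in both tissues were found for 2065 transcripts (13.2%) with a log2 ratio within 0.25 of 0. The most abundant of these by the lower of their values were OFUSG11159.2 and OFUSG02978.1. OFUSG11159.2 had 16633 in muscle and 17550 in body wall, a ratio of 0.948 (95% counting interval 0.922 to 0.974). Elsewhere it had 77912 in head plus chaetae, 7602 in head, 6687 in tail, 5616 in testis, 4057 in gut, 1512 in ovary and 175 in blood vessel, so an even ratio of muscle to body wall went with unequal levels in the rest of the worm. It is 1 of 5 isoforms, and the others had log2 ratios of 3.71, 2.96, -0.71 and 1.11. The even ratio is thus that of the isoform, whose value is an estimate from shared reads. OFUSG02978.1 had 18442 in muscle and 15942 in body wall, a ratio of 1.16 (1.13 to 1.19), with 12288 in tail, 12252 in head plus chaetae, 7442 in ovary, 5961 in head, 5269 in gut, 2620 in testis and 872 in blood vessel. All 9 libraries lay within 4-fold, with 10 added, for 720 of the 2065 (34.9%), against 2856 (18.3%) of all transcripts described. The choice of an even ratio fixes part of this contrast. The background holds transcripts 4-fold apart between muscle and body wall, which cannot meet the measure.

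The retractor muscle was neither the closest nor the farthest library from the body wall. With the same 50 and 10 applied to each library, 29.3% of the transcripts were 4-fold apart from the body wall in the muscle, against 11.9% in tail, 19.3% in head plus chaetae, 26.5% in head, 31.5% in gut, 31.8% in ovary, 38.8% in testis and 46.1% in blood vessel. These comparisons share the body wall library, and the libraries differ in the reads left after the 43 transcripts, so the values stand side by side without a test.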

How the data were processed

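RNA was extracted with the Monarch kit from 9 adult tissues and sequenced by BGI on a BGISEQ-500. The authors trimmed the reads, pseudo-aligned them with kallisto to their gene models and normalized the counts with DESeq2, and the deposited values are this normalized signal per transcript and library. The submitters' processing notes list kallisto 0.44.0, DESeq2 1.34.0 and R 4.1.2, of which the kallisto and DESeq2 versions differ from those in the methods. The sources used here do not say how transcript estimates were passed to DESeq2. Values of a single read varied slightly between transcripts (2.62 to 2.77 in the retractor muscle), so recovered reads are approximate. Of low values (up to 20 reads), 93.1% in the retractor muscle and 96.1% to 100% in the other libraries lay within 0.1 read of a whole number.

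No count test was run, as each tissue has 1 library. Transcripts above 0.1% of the testis sum were left out, transcripts of 50 or more in either library were kept, and log2 ratios were taken with 10 added. Shares of kept values exclude the 43 transcripts. Ratio intervals are 95% exact (Clopper-Pearson) intervals on recovered reads. The members, lists and boundaries were chosen with earlier results of these data known. Named transcripts are, by rule, the largest ratio, the next largest with a testis value below 0.25 times the muscle value, the lowest ratio, the most abundant transcript 4-fold higher in the body wall, and the 2 most abundant even ones. Others are said to be chosen after their values were seen. Marker lists of muscle, testis, epidermis and neurons could not be applied without gene names. The computation was tested on simulated data. Alternatives changed the floor, the amount added, the transcripts left out, the scaling, the isoforms and the counting limit. Python 3.11.15, numpy 2.4.6, pandas 2.3.3, scipy 1.17.1 and matplotlib 3.10.9 were used.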

Additional observations from a re-analysis of the deposited data

How the results depend on the processing

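Across 13 alternatives, and 1 added after the data were seen, 42 of 52 values stayed within the tolerance (1.5 times for counts, 0.1 for the median log2 ratio, and 58% to 62.4%, the Wilson interval, for the share of muscle transcripts with testis at 0.25 times the muscle value or more). A floor of 200 in place of 50 left 1032 transcripts higher in the muscle and 1421 higher in the body wall, from fewer transcripts described, and adding 30 in place of 10 left 1255 in the muscle. The median log2 ratio was -0.66 with columns rescaled to equal sums, -0.32 with a floor of 20 recovered reads and 0.00 by construction when centred. The share with testis was 64% at a floor of 100, 67.4% at 200, 63.6% with 30 added, and 64% for muscle values of 100 or more, the alternative added later. For the other moved values the cause was not tested. The body wall held more transcripts 4-fold apart than the muscle under each alternative that gave both counts. At 18.2 muscle reads for a value of 50, and 9.05 testis reads, absence from these libraries was less well measured than absence from the body wall. No paired analysis was possible because each tissue has 1 library and the groups share no replicate numbers beyond it.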

Other observations

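Isoforms of 1 gene did not always lie on the same side. Of 1195 genes with at least 2 transcripts described, 123 (10.3%) had 1 transcript 4-fold higher in the muscle and another 4-fold higher in the body wall, while 60 had all of theirs higher in the muscle and 56 all higher in the body wall. With the isoforms of the 123 genes summed, 87 were less than 2-fold apart. Values of isoforms are estimates from reads that the isoforms share. OFUSG25622.2, chosen after its values were seen, had a normalized value of 2922 in body wall and no read in any of the other 8 libraries, which is at least 354-fold above the limit of 3 muscle reads. The 4 other isoforms of its gene had between 183 and 10033 in muscle and between 273 and 5289 in body wall.

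Transcripts that differed often had consecutive identifiers. Of 1832 genes with a transcript higher in the muscle, 434 (23.7%) had the gene of the previous or next number in the same set, against 12.9% of the 12359 other genes described that lay next to a gene of the set. For the body wall these shares were 36.5% of 2557 genes and 16.3%. Among the 20 largest ratios in the muscle, 4 had the previous or next number within the 20. The shares above refer to larger sets and are no background for this count. OFUSG09716.1 and OFUSG09717.1 had 79366 and 292401 in muscle, 12629 and 51746 in head plus chaetae, and 5.53 each in the testis. OFUSG05300.1 had 159109 in muscle and 112409 in testis but 1220 in head plus chaetae, unlike OFUSG05301.1 with 212905, 1039 and 26894. These 4 were chosen after their values were seen, except OFUSG05301.1. The sources used here do not say whether the numbers follow positions in the genome, and reads shared by similar neighbouring genes were not examined.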
